A study of Mus musculus with 12 samples.

Results

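The expression of 10 genes that restrain mitogen-activated protein kinase (MAPK) signalling was followed in AML12 cells under copper overload and taurocholic acid. The genes were the dual-specificity phosphatases Dusp1, Dusp4, Dusp5, Dusp6, Dusp8 and Dusp10, the Sprouty genes Spry2 and Spry4, and the Sprouty-related genes Spred1 and Spred2. They were chosen by symbol, and all 10 were found among the 24824 genes of the expression table. AML12 is a wild-type-labelled mouse hepatocyte line, known as derived from a mouse that carried a transgene for transforming growth factor alpha, a ligand of the epidermal growth factor receptor. Group A was grown in medium without added agents. Group B received copper chloride (CuCl2, 300 μM) with the copper ionophore elesclomol (ES, 40 nM), a combination written Cu/ES here. Group C received Cu/ES together with the bile acid taurocholic acid (TCA, 1000 μM), and group D received TCA (1000 μM) alone. Treatment lasted 24 h, and each of the 4 groups had 3 libraries of polyadenylated RNA. Separate cultures are not stated for these libraries, so the p-values measure only the spread between them, which may be technical.

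MAPK cascades pass growth factor and stress signals from the cell surface to the nucleus by phosphorylation. In the ERK branch, receptor tyrosine kinases switch on RAS, which acts through RAF and MEK on ERK; the JNK and p38 branches respond mainly to stress. Dual-specificity phosphatases remove the activating phosphates from the kinases, while Sprouty and Spred proteins act upstream, between the receptors and RAF. Many of these genes are themselves transcribed in response to MAPK activity and so form negative feedback loops, which in liver are known from growth factor and injury responses.

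Levels are given as FPKM (fragments counted on a gene, scaled to the length of the gene model and to library depth), and differences as log2 fold changes of FPKM + 1 with a standard error (SE). A gene was said to rise or fall at an adjusted p under 0.05 in limma, a linear model with a variance estimate shared across the 10615 genes with a mean of at least 1 FPKM; all 10 genes passed that filter. Library totals were 29115011 to 39782142 reads. Genes at or above 1 FPKM numbered 10570 to 10893 per library in groups A and D and 8458 to 8711 in groups B and C, while the 10 most abundant genes took 7.83 to 8.49% and 14.9 to 15.9% of summed FPKM, respectively. The median log2 fold change of all tested genes was −1.10 for B vs. A and −1.13 for C vs. D, while that of C vs. B was −0.03 and that of D vs. A −0.01, so changes under Cu/ES are given beside that median. Fewer cells of a type and less RNA per cell cannot be told apart in such samples. Of the hepatocyte markers, Alb, Apob, Hnf4a and Fga averaged under 0.05 FPKM in every group, whereas the epithelial keratins Krt8 and Krt18 averaged 343.5 and 284.9 FPKM in group A. The summed level of the 8 hepatocyte markers measured was mostly that of Krt8 and Krt18. It was 596 to 649 FPKM in group A, 237 to 287 in B, 173 to 209 in C and 697 to 717 in D. Apoa1 and Trf, both below the filter, averaged 0.009 and 0.007 FPKM in group A. They were higher in group B (1.86 and 0.72 FPKM) and group C (1.11 and 0.54 FPKM). Endothelial markers summed to at most 1.25 FPKM in groups A and D, 6.79 to 10.5 in B and 16.5 to 19.7 in C. In B and C this sum was mostly Pecam1, at 6.85 and 16.05 FPKM on average. Cdh5 did not pass in B vs. A (limma adjusted p = 0.349) but rose in C vs. B (limma adjusted p = 0.0348). Stellate cell markers summed to 13.2 to 38.3 in A and D and at most 3.28 in B and C. This sum was mostly Col1a1 and Des, at 15.9 and 9.65 FPKM on average in group A. Below the filter, Pdgfrb and Dcn were lower in group B than in A. Acta2 and Col1a2, also below it, were higher in group B (0.36 and 0.05 FPKM) than in A (0.006 and 0.01 FPKM). Cholangiocyte markers summed to 158 to 326 FPKM in A and D and 113 to 142 in B and C. Of that list Sox9 and Cftr nevertheless rose in B vs. A (2.19 and 1.32 on the log2 scale) while Krt19 fell by 1.78. Sox9 went from 10.6 to 50.9 FPKM, whereas Cftr was a very low gene, at 0.07 FPKM in group A and 1.69 in group B. Immune markers, mostly Cd68, summed to 72.5 to 102 in A and 24.1 to 37.0 in the other groups. The part of these marker shifts in the results was not tested.

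Under Cu/ES, 3 phosphatase genes rose several-fold while Spred1 fell, and Spred2 fell on the FPKM scale but not under quantile normalization (0.10, limma adjusted p = 0.281). Dusp1, Dusp5 and Dusp10 were 9.03, 5.64 and 3.80 times their untreated mean FPKM in group B, and Spred1 and Spred2 were 7.72-fold and 3.48-fold lower. Dusp4, Dusp6, Spry2 and Spry4 fell by 0.47 to 0.90 on the log2 scale, less than the median gene and with a direction that turned when libraries were scaled to a common median gene (median-ratio scaling). Dusp8 gave 0.04. In all, 9 of the 10 genes passed, where 92.1% of all tested genes did. Of these 3 rose, where 20.1% of all tested genes rose, and 6 fell, where 72% fell. With an absolute log2 fold change above 1 required as well, 3 rose (10.1% of all genes) and 2 fell (53% of all genes). The median of the 10 genes was −0.49 against −1.10 over all tested genes.

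**Figure D1:**
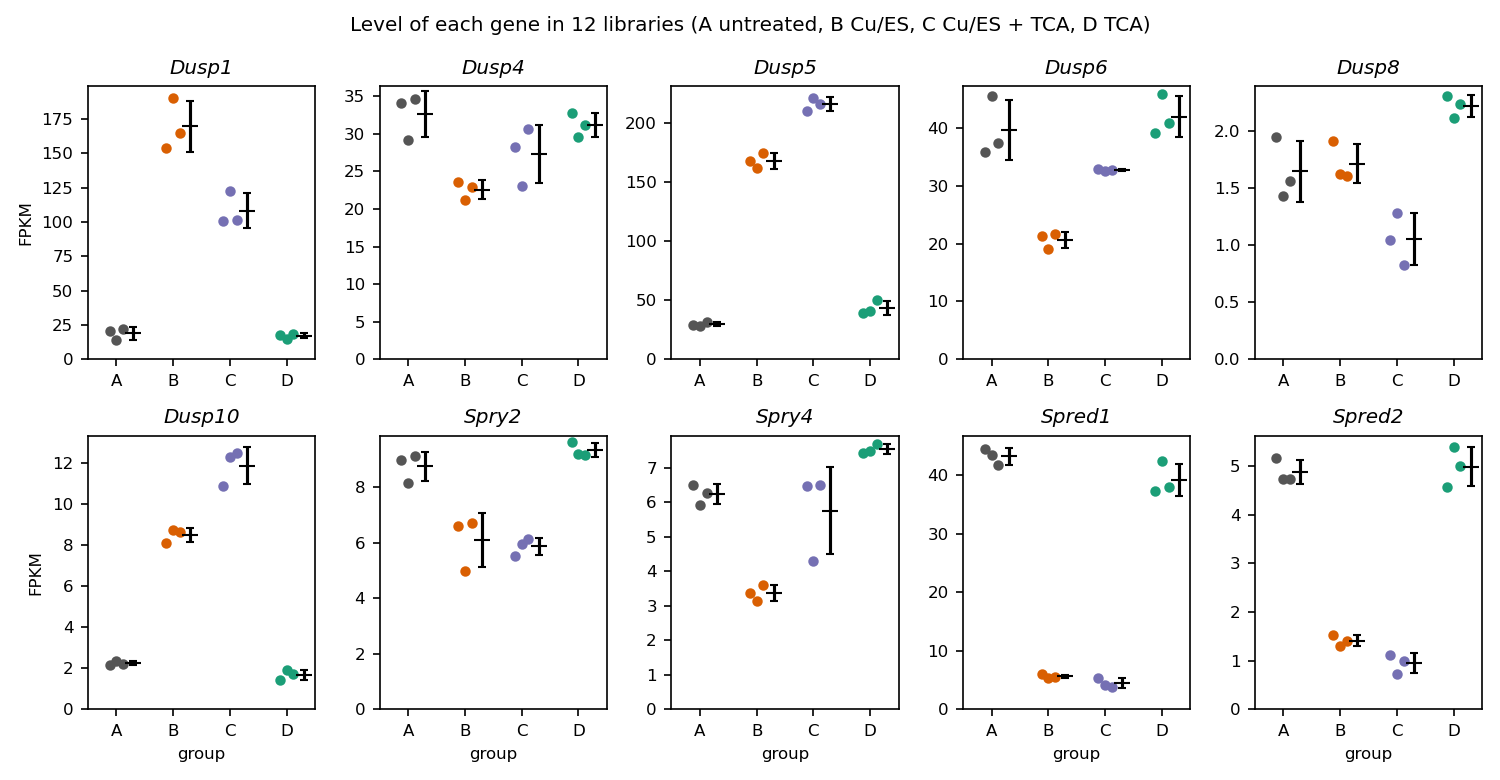
FPKM (linear axis from 0) of each of the 10 genes in the 12 libraries, with groups A to D on the x axis; points are libraries and the black bar beside each group is the mean ± SD (n = 3). Dusp1, Dusp5 and Dusp10 are high in groups B and C, Spred1 and Spred2 are low there, and the remaining genes lie within a narrower range.

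Dusp1 encodes a nuclear phosphatase of JNK, p38 and ERK. Its level in group A was 20.3, 13.8 and 22.3 FPKM, and in group B 154.0, 190.2 and 164.9 FPKM. Every Cu/ES library was thus far above every untreated one, and Dusp1 moved from the fifth most abundant of the 10 genes to the first. The log2 fold change was 3.13 (SE 0.15, limma adjusted p = 5.02e-11), larger than that of 99.1% of the genes tested. Reads behind these values were 1040 to 1694 in group A and 9477 to 11821 in group B. In the mouse annotation a Dusp1 exon shares 11 bases with Ergic1 on the opposite strand, and whether counting used strand is not given in the sources used here; Ergic1 itself averaged 30.9 FPKM in group A and 8.38 in group B.

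Dusp5 encodes a nuclear phosphatase that acts on ERK and is itself a textbook ERK-induced gene. It stood at 29.2, 28.4 and 31.7 FPKM in group A and at 167.9, 161.7 and 174.6 FPKM in group B. The 3 libraries of each group lay close together and the groups were far apart. The log2 fold change was 2.46 (SE 0.08, limma adjusted p = 1.81e-12), above 97.9% of the genes tested. A Dusp5 exon shares 547 bases with an unnamed opposite-strand transcript (AC137853.2), for which no level was available. Since the use of strand in counting is not given, the part of that transcript in the Dusp5 values was not tested.

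Dusp10 encodes a phosphatase with a preference for JNK and p38. It was a low gene in untreated cells, at 2.15, 2.35 and 2.20 FPKM, and reached 8.12, 8.73 and 8.61 FPKM in group B. The SD was 4.79% of the mean in group A and 3.84% in group B. The log2 fold change was 1.55 (SE 0.09, limma adjusted p = 2.95e-10), and 94.4% of tested genes had a smaller one.

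The DNA just upstream of these genes is shown because Dusp1, Dusp5 and Dusp10 moved together under Cu/ES, with Dusp8 beside them as a phosphatase gene that did not pass the test on the FPKM scale. Each sequence is the 250 bases before the RefSeq start of the gene in GRCm38.p6, 5′ to 3′ on the strand of the gene. The windows are chr17:26508473-26508722 (minus strand), chr19:53528895-53529144 (plus), chr1:184034131-184034380 (plus) and chr7:142095285-142095534 (minus). Capitals mark matches lying wholly before the start to any of the motifs searched on both strands, which were the cyclic AMP response element (CRE, TGACGTCA), its shorter core (TGACG), the AP-1 site (TGANTCA), the heat shock element (GAANNTTC), the metal response element (TGCACNC or TGCGCNC), the ETS core (CCGGAA) and the serum response element.
Dusp1: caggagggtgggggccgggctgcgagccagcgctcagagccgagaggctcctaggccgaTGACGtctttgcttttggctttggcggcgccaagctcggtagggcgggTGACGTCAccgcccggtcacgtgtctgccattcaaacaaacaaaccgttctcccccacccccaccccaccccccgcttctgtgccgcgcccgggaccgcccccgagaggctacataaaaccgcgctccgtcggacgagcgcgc
Dusp5: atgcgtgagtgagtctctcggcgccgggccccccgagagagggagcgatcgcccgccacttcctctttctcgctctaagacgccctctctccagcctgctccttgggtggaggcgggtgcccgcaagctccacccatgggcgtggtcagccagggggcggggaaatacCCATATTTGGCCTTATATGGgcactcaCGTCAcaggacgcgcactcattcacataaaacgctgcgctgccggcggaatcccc
Dusp10: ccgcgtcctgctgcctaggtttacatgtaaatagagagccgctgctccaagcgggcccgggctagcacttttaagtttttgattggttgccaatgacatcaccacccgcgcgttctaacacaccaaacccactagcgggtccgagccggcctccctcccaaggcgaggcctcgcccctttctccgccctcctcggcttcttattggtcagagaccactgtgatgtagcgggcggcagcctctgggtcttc
Dusp8: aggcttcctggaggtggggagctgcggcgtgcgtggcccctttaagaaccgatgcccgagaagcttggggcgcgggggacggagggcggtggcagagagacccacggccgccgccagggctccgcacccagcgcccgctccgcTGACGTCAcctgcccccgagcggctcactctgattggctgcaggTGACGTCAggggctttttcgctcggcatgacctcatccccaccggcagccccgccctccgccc

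The Dusp1 window held a full CRE 143 to 136 bases before the start and a separate CRE core 191 to 187 bases before it, and its metal response element ran past the start and is not in capitals. The Dusp5 window held a pair of adjoining serum response elements, CCATATTTGG and CCTTATATGG, spanning 82 to 63 bases before the start, and a CRE core at 55 to 51 bases. The Dusp8 window held full CREs at 107 to 100 and 63 to 56 bases before the start, each of which also counts as a CRE core, whereas the Dusp10 window held no match to any of these motifs. Windows of 8 of the 10 genes (without Dusp4 and Spry4) were searched, each also over 50 bases past the start. A full CRE was in 2 of the 8 against 1.79% of 32851 promoter windows of the same length, and serum response elements were in 1 of the 8 against 1.63%. The CRE core was in 4 of the 8 (20.8% of all windows), the metal response element in 3, for Dusp1, Spry2 and Spred2 (25.7%), and the ETS core in 1, Spry2 (14.9%). None of the 8 held an AP-1 site (7.81% of all windows) or a heat shock element (7.86%). The motifs are matches of letters and no binding was measured.

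Among the other phosphatases, Dusp6, a cytoplasmic ERK phosphatase, stood at 35.9, 45.6 and 37.4 FPKM in group A and at 21.2, 19.1 and 21.6 FPKM in group B. The groups did not overlap, and the log2 fold change of −0.90 (SE 0.09, limma adjusted p = 2.18e-07) lay 0.20 above the median of all genes. Dusp4, a nuclear phosphatase related to Dusp1, averaged 32.7 ± 3.01 FPKM in group A and 22.6 ± 1.23 in group B (± SD over 3 libraries). It fell by 0.51 on the log2 scale, which lay 0.59 above the all-gene median. Dusp8, a phosphatase of JNK and p38, was barely expressed, with 1.64 ± 0.27 FPKM in group A and 1.71 ± 0.17 in group B and overlapping libraries (log2 fold change 0.04, SE 0.10, limma adjusted p = 0.714).

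Spred1, an inhibitor that brings the RAS-inactivating protein neurofibromin to the membrane, was the most abundant of the 10 genes in untreated cells and showed the largest fall of the 10. Its level was 44.5, 43.5 and 41.7 FPKM in group A and 5.92, 5.38 and 5.50 FPKM in group B. The log2 fold change was −2.75 (SE 0.10, limma adjusted p = 2.51e-12), which is 1.64 below the all-gene median, and 8.14% of tested genes had a lower one. Its relative Spred2 fell from 5.18, 4.75 and 4.74 FPKM to 1.52, 1.30 and 1.40 FPKM, a log2 fold change of −1.29 (SE 0.09, limma adjusted p = 5.81e-09) that lay 0.19 below that median. The length of the Spred2 gene model that the values imply was 37937 bases, so its low FPKM rested on 7008 to 7521 reads in group A.

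On the FPKM scale the Sprouty genes had smaller log2 fold changes than the Spred genes, an order that did not hold for Spred2 under median-ratio or quantile scaling. Spry2 fell from 8.74 ± 0.53 to 6.10 ± 0.97 FPKM (log2 fold change −0.47, SE 0.10), and its B libraries were spread from 4.98 to 6.70 FPKM. Spry4, classed with Spry2 as an inhibitor of receptor signalling to RAS, stood at 6.50, 5.91 and 6.28 FPKM in group A and at 3.35, 3.14 and 3.60 FPKM in group B. Its log2 fold change was −0.73 (SE 0.12, limma adjusted p = 3.19e-05), and both Sprouty genes lay above the all-gene median, by 0.64 and 0.37.

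**Figure D2:**
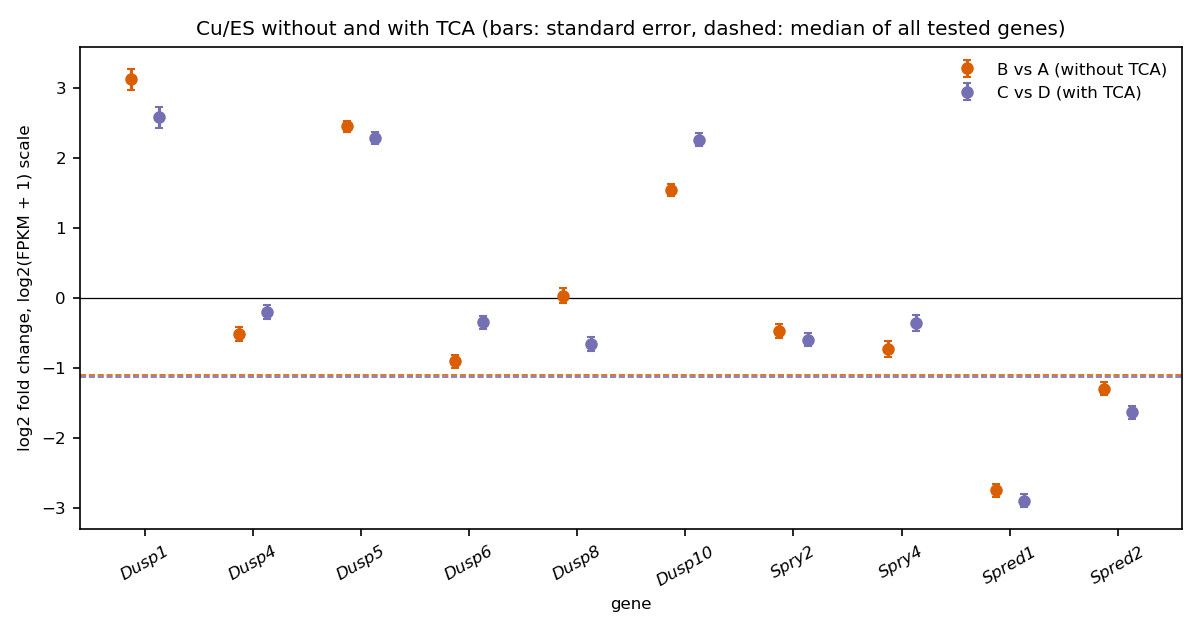
Log2 fold change on the log2(FPKM + 1) scale (y axis) of the 10 genes (x axis) for B vs. A and C vs. D; bars are the SE and dashed lines the median of all tested genes, −1.10 and −1.13. Dusp1, Dusp5 and Dusp10 are above 1.5 in both comparisons, Spred1 and Spred2 are below the median lines in both, and the rest lie between −1 and 0.1.

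The direction of the smaller changes depended on how libraries were scaled. Dusp1, Dusp5 and Dusp10 rose and Spred1 fell under all 10 alternatives to the analysis given above and without each library in turn. Under median-ratio scaling Dusp4, Dusp6, Spry2 and Spry4 changed sign to 0.78, 0.39, 0.71 and 0.37, and Dusp8 rose by 0.87 (limma adjusted p = 5.3e-06). Quantile normalization likewise gave 0.05, 0.81 and 0.66 for Dusp4, Spry2 and Spry4, left Dusp6 at −0.39, and put Spred1 at −1.97. Spred1 and Spred2 were at −1.50 and −0.33 under median-ratio scaling. Over all genes, 2138 rose and 7639 fell on the FPKM scale, against 4670 and 4654 with median-ratio scaling.

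**Figure D3:**
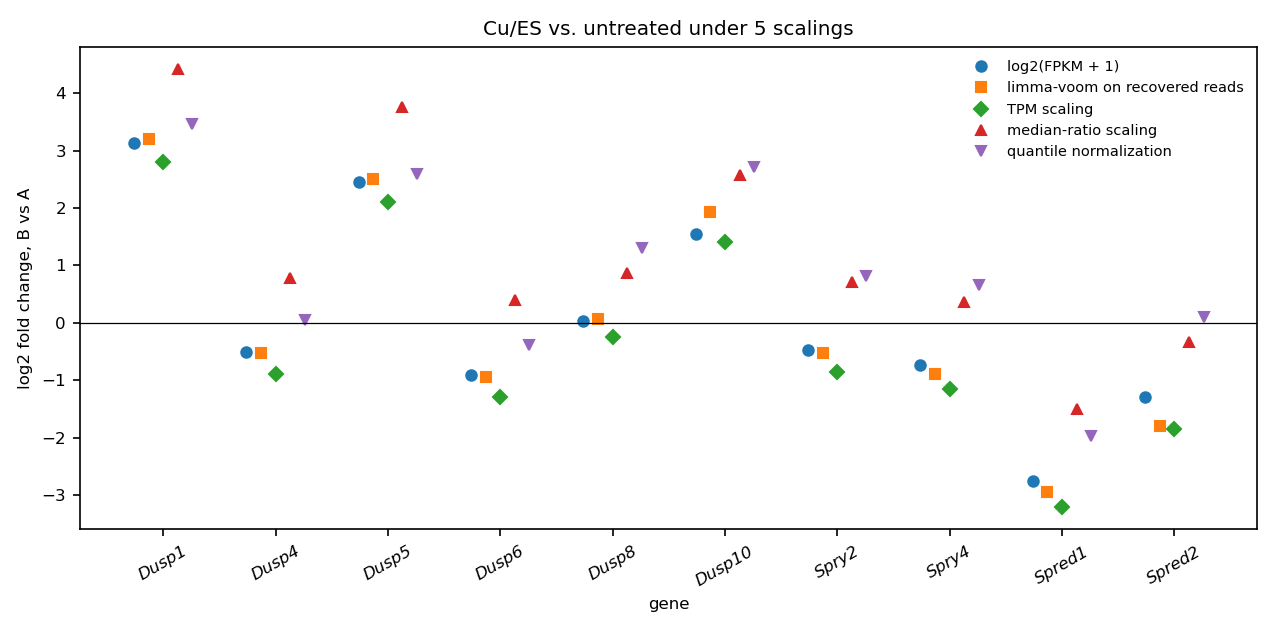
Log2 fold change of B vs. A (y axis) of the 10 genes (x axis) under 5 scalings: log2(FPKM + 1), limma-voom on recovered reads, rescaling to a common sum (TPM), median-ratio scaling and quantile normalization. Dusp1, Dusp5 and Dusp10 stay above 1 and Spred1 below −1 under each, while Dusp4, Spry2 and Spry4 are below 0 under the first 3 and above 0 under the last 2.

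Adding TCA to Cu/ES (C vs. B) moved the 10 genes in both directions, by less than 1 log2 unit each. Dusp6 and Spry4 rose the most, 1.59-fold and 1.71-fold in mean FPKM, followed by Dusp10 and Dusp5, while Dusp1 was 1.57-fold lower. Dusp8 and both Spred genes fell. In all, 8 of the 10 genes passed, where 44% of all tested genes did. Of these, 4 rose where 20.4% of tested genes did, and 4 fell where 23.6% did. None of the 10 passed an absolute log2 fold change of 1, which 1.13% of tested genes passed upward and 1.16% downward. B vs. A and C vs. B share the libraries of group B, so their values are given side by side only.

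Dusp6 stood at 32.9, 32.5 and 32.7 FPKM in group C, above all 3 libraries of group B and below all 3 of group A (log2 fold change vs. B 0.64, SE 0.09, limma adjusted p = 8.24e-05). Spry4 reached 6.45, 4.30 and 6.51 FPKM (log2 fold change 0.61, SE 0.12, limma adjusted p = 7.83e-04). C replicate 2 was thus the lowest of the 3 for Spry4, but still above every library of group B. Without it the log2 fold change was 0.78.

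Dusp5 rose again, to 210.4, 221.7 and 216.5 FPKM, and was the most abundant of the 10 genes in group C (log2 fold change vs. B 0.36, SE 0.08, limma adjusted p = 0.00314). Dusp10 reached 10.9, 12.3 and 12.5 FPKM (0.44, SE 0.09, limma adjusted p = 0.00107). For both, each group C library was above each group B library. Dusp1 went the other way, to 100.4, 122.8 and 101.8 FPKM (−0.64, SE 0.15, limma adjusted p = 0.00319), which left it below every library of group B but well above group A.

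Dusp8 was at 1.04, 1.28 and 0.82 FPKM in group C, from 146 to 245 reads (log2 fold change vs. B −0.41, SE 0.10, limma adjusted p = 0.00487). Spred2 was at 1.12, 0.71 and 0.99 FPKM (−0.31, SE 0.09, limma adjusted p = 0.0151), and this call was lost without B replicate 1 (adjusted p = 0.0558) or C replicate 2 (0.0507). Spred1 was at 5.40, 4.15 and 3.80 FPKM and overlapped group B (−0.29, SE 0.10, limma adjusted p = 0.0281). Its call was lost with TPM scaling (adjusted p = 0.118), without a filter on low values (0.065), with only the compared groups in the model (0.111) and without B replicate 1, B replicate 3, C replicate 2 or C replicate 3 (0.0542 to 0.132). Dusp4 at 27.3 ± 3.90 FPKM (0.26, limma adjusted p = 0.0503) and Spry2 at 5.86 ± 0.31 FPKM (−0.04, limma adjusted p = 0.77) did not pass, although Dusp4 passed in 6 of 10 alternatives (limma adjusted p from 0.00938 to 0.116).

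TCA by itself (D vs. A) raised Dusp5 and lowered Dusp10. Dusp5 stood at 39.4, 41.0 and 50.5 FPKM in group D against 28.4 to 31.7 in group A (log2 fold change 0.53, SE 0.08, limma adjusted p = 9.75e-04), a higher value than that of 97.95% of tested genes. Dusp10 fell to 1.42, 1.89 and 1.71 FPKM (−0.28, SE 0.09, limma adjusted p = 0.0355). These 2 of 10 genes stand beside 22% of all tested genes, with 1 higher (10.5% of tested genes) and 1 lower (11.5%). None of the 10 passed an absolute log2 fold change of 1, which 0.0659% of tested genes passed upward and 0.151% downward.

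The call for Dusp10 was lost with median-ratio scaling (adjusted p = 0.108), with quantile normalization (0.234) and without A replicate 1, 2 or 3 or D replicate 1 or 3 (0.071 to 0.156), whereas Dusp5 passed under all 10 alternatives and without each library in turn. Dusp8 stood at 2.31, 2.11 and 2.23 FPKM and Spry4 at 7.43, 7.49 and 7.69 FPKM in group D, each above all group A libraries, but they did not pass (limma adjusted p = 0.0573 and 0.154). For Dusp1, Dusp4, Dusp6, Spry2, Spred1 and Spred2 the log2 fold changes ran from −0.14 to 0.09 with adjusted p of 0.333 to 0.898 in limma. Of these, the group D libraries of Spry2 (9.15 to 9.61 FPKM) also lay just above those of group A (8.14 to 9.12 FPKM). The count of genes that passed was 1 without A replicate 2, A replicate 3, D replicate 1 or D replicate 3, and 4 without C replicate 2.

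**Figure D4:**
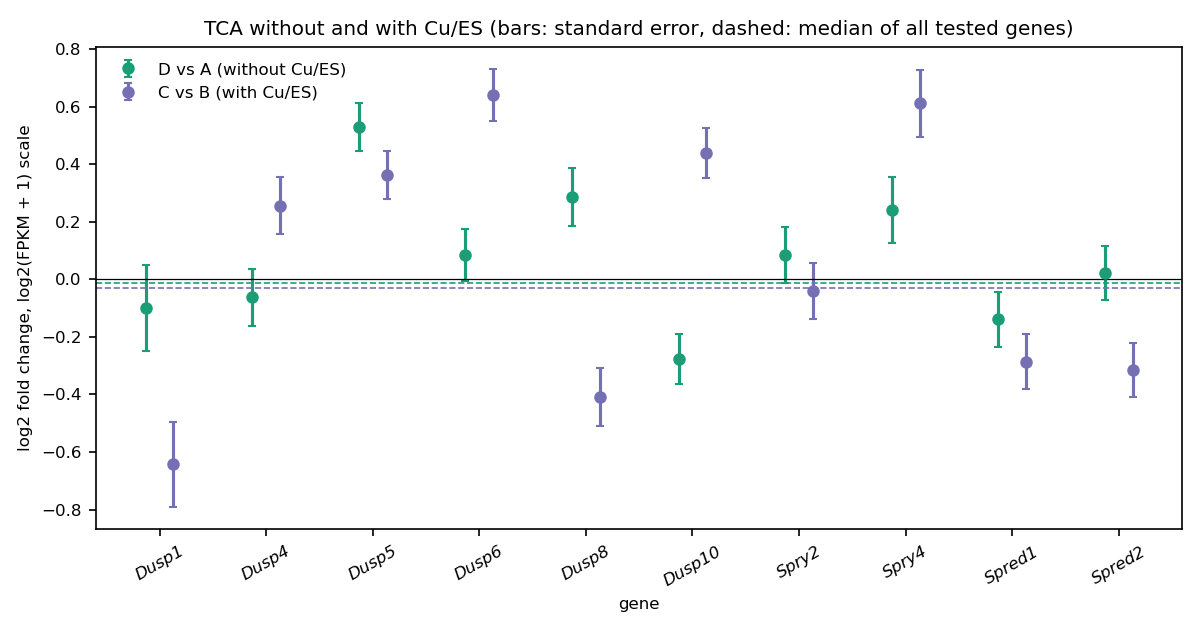
Log2 fold change on the log2(FPKM + 1) scale (y axis) of the 10 genes (x axis) for TCA without Cu/ES (D vs. A) and with it (C vs. B); bars are the SE and dashed lines the median of all tested genes. Dusp5 is above 0.3 in both, Dusp8 and Dusp10 lie on opposite sides of 0 in the 2 comparisons, and Dusp6 is near 0.1 in one and above 0.6 in the other.

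Whether TCA acted differently with and without Cu/ES was tested as the interaction, C vs. B minus D vs. A. It passed for Dusp10 (0.72, SE 0.12, limma adjusted p = 6.46e-04), Dusp6 (0.56, SE 0.13, limma adjusted p = 0.0042) and Dusp8 (−0.70, SE 0.14, limma adjusted p = 0.00217). Dusp10 fell with TCA alone, a call lost under median-ratio and quantile scaling, and rose with TCA on top of Cu/ES. Dusp8 moved by 0.29 without Cu/ES, short of the threshold, and fell with it. These are 3 of 10 genes, with 37.5% of all tested genes passing the same test. Of the 3, 2 were positive, as were 17.7% of tested genes, and 1 was negative, as were 19.8%. None of the 10 passed an absolute interaction of 1, which 1.75% of tested genes passed upward and 1.73% downward. For the remaining 7 genes the interaction was between −0.54 (Dusp1, limma adjusted p = 0.0571) and 0.37 (Spry4, limma adjusted p = 0.0907). The count was 6 with median-ratio scaling, and also 6 without C replicate 2, where Dusp1, Dusp4 and Spry4 passed as well.

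Cu/ES in cells that also received TCA (C vs. D) gave calls for 9 of the 10 genes (92.4% of tested genes), 3 higher (20.9%) and 6 lower (71.5%). Beyond 1 log2 unit, 3 were higher (11.2% of tested genes) and 2 lower (53.3%). Dusp1, Dusp5 and Dusp10 were 6.30, 4.96 and 7.09 times their group D mean FPKM, and their log2 fold changes on the FPKM + 1 scale were 2.59, 2.29 and 2.27. Spred1 was 8.81-fold and Spred2 5.30-fold lower in mean FPKM, with log2 fold changes of −2.89 and −1.63 that shrank to −1.63 and −0.70 under median-ratio scaling and to −1.99 and −0.28 under quantile normalization. Dusp8 was 2.11-fold lower (log2 fold change −0.66), Dusp6, Spry2 and Spry4 gave −0.35, −0.59 and −0.36, and these 4 genes turned positive under quantile normalization and under median-ratio scaling (0.18, 1.01, 0.63 and 0.85). Dusp4 at −0.19 did not pass (limma adjusted p = 0.0783), and it turned to 1.15 under median-ratio scaling and 0.40 under quantile normalization.

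Sums over the families were carried by single genes, Dusp1 and Dusp5 in groups B and C and Spred1 in groups A and D, and were not tested. The summed level of the 6 phosphatase genes was 121 to 130 FPKM in group A, 377 to 403 in group B, 384 to 414 in group C and 133 to 145 in group D. The 4 Sprouty and Spred genes together gave 61.8 to 65.2 FPKM in group A, 14.8 to 17.4 in group B, 15.1 to 18.5 in group C and 58.9 to 64.4 in group D. The order within the 10 genes changed accordingly: Spred1, Dusp6 and Dusp4 led in group A with 43.2 ± 1.45, 39.6 ± 5.21 and 32.7 ± 3.01 FPKM, of which Spred1 and Dusp6 overlapped between libraries. Dusp1 and Dusp5 led in group B with 169.7 ± 18.6 and 168.1 ± 6.47 FPKM and overlapped, while in group C Dusp5 (216.2 ± 5.68 FPKM) was clear of Dusp1 (108.3 ± 12.6 FPKM). In group D, Dusp5, Dusp6 and Spred1 stood at 43.6 ± 6.02, 42.0 ± 3.54 and 39.2 ± 2.77 FPKM with overlapping libraries.

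Across groups, Dusp5 ran C, B, D, A from high to low and Dusp10 ran C, B, A, D, with no overlap between neighbouring groups for either. Dusp1 ran B, C, A, D, where A and D overlapped. Spred1 and Spred2 were high in A and D, which overlapped, and low in B and C. Dusp6 and Spry4 shared the order D, A, C, B, with overlap only of D and A for Dusp6 and only of A and C for Spry4.

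Genes with the most similar course over the 12 libraries were sought by the Euclidean distance between log2(FPKM + 1) values centred on group A. For Dusp5 the nearest of all tested genes was Dusp2, another inducible nuclear MAPK phosphatase, at a distance of 0.33 against a median of 9.32 over all genes, followed by Txnrd1, encoding a thioredoxin reductase. For Dusp10 it was the autophagy gene Map1lc3b (0.30) and for Spry4 the proprotein convertase gene Furin (0.31). Dusp1 had no gene as close, its nearest being Stmn4 at 0.76. Stmn4 went from 0.02 FPKM in group A to 7.59 in group B, where Dusp1 went from 18.8 to 169.7. With the pseudocount, this distance can thus pair genes whose FPKM ratios differ widely. The nearest for Dusp4, Dusp6 and Dusp8 were Tnpo2 (0.27), Nherf1 (0.38) and Eif3b (0.35). Those for Spry2, Spred1 and Spred2 were Cep76 (0.30), Ak3 (0.36) and Col5a1 (0.24). Ak3 went from 7.32 FPKM in group A to 0.26 in group B, where Spred1 went from 43.2 to 5.60. Within the 10 genes the closest pairs were Dusp4 with Spry2 (0.63) and Dusp6 with Spry4 (0.73).

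The wider pathway was read from 9 gene lists, of which 106 genes were tested. In B vs. A, 25 of them rose (23.6%, beside 20.1% of all tested genes), 71 fell (67%, beside 72%) and 10 did not pass. In C vs. B 38 rose (35.8%, beside 20.4%), 20 fell (18.9%, beside 23.6%) and 48 did not pass. In D vs. A 23 rose (21.7%, beside 10.5%) and 7 fell (6.6%, beside 11.5%). Of the 4 other MAPK phosphatase genes, Dusp2 went from 30.8 ± 5.03 FPKM in group A to 174.7 ± 10.5 in group B and 229.0 ± 16.1 in group C, and Dusp16 rose from 6.07 ± 0.49 to 9.56 ± 0.42 FPKM in group B. Dusp7, an ERK phosphatase, fell from 11.4 ± 0.19 to 0.71 ± 0.11 FPKM in group B and was 2.38 ± 0.13 in group C, where it rose. Dusp9 fell in both steps (−0.66 and −0.78), although B vs. A turned to 0.37 under median-ratio scaling. All 9 tested atypical phosphatase genes fell in B vs. A, where 72% of all tested genes fell, led by Dusp19 (−3.25) and Dusp22 (−2.86), but 3 of the 9 rose and 5 fell under median-ratio scaling.

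Of 9 other feedback inhibitors, 1 rose and 8 fell in B vs. A, where 20.1% of all tested genes rose and 72% fell. The riser was Errfi1, an inhibitor of the epidermal growth factor receptor, at 25.4 ± 1.86 FPKM in group A, 81.6 ± 12.8 in B, 99.9 ± 9.48 in C and 36.3 ± 1.87 in D, and it rose in C vs. B and D vs. A too. Rasa2 (−2.18) and Il17rd (−2.12) fell the most. Under median-ratio scaling 4 of the 9 rose and 4 fell. In C vs. B, Pebp1 fell by 0.52 on the log2 scale.

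Upstream of the feedback genes, 7 of 8 receptor tyrosine kinase genes fell in B vs. A, beside 72% of all tested genes, led by Fgfr1 (−2.96) and Insr (−2.54), and 6 of the 8 fell under median-ratio scaling. The exception was Epha2, an ephrin receptor, at 22.9 ± 2.54 FPKM in group A, 199.9 ± 17.5 in B and 347.2 ± 35.2 in C. Of 8 ligand genes, 3 rose (20.1% of all tested genes did) and 4 fell (72%). Fgf21 (1.51) and Ereg (0.65) were up and Btc (−3.19) and Tgfa (−2.10) down, and 6 rose and 2 fell under median-ratio scaling. The transforming growth factor alpha transgene known for this line has no level of its own here. The fall of Tgfa thus does not give the course of that transgene, which was not tested. Of 11 adaptor and GTPase regulator genes 3 rose and 6 fell, beside the same shares of all tested genes. Irs2 (1.29) and Shc1 (0.53) were up and Frs2 (−2.56) and Rasa1 (−1.82) down. Shc1 did not pass with TPM scaling, and 7 of the 11 rose and 4 fell under median-ratio scaling. In C vs. B, 6 of these 11 rose, beside 20.4% of all tested genes, among them Irs2 (0.96) and Nf1 (0.61).

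In the kinase core, 13 of 15 RAS, RAF, MEK and ERK genes fell in B vs. A and 1 rose, with a median of −1.36 against −1.10 over all genes. Over all tested genes 72% fell and 20.1% rose in that comparison. Mapk3, the gene of ERK1, fell from 119.8 ± 1.94 to 19.1 ± 0.58 FPKM, while Lamtor3, a MEK scaffold on the lysosome, rose by 1.51. Under median-ratio scaling 6 of the 15 rose and 7 fell. In C vs. B, 7 of the 15 fell (23.6% of all tested genes did), led by Hras (−0.78) and Mapk3 (−0.66), and 3 rose (20.4%), led by the MEK2 gene Map2k2 (0.58) and Lamtor3 (0.31). Of 16 JNK and p38 genes 3 rose and 13 fell in B vs. A (7 and 9 under median-ratio scaling), with Map3k20 (1.11) and Map2k3 (1.10) up and Map2k4 (−3.65) and Map3k1 (−2.76) down. In C vs. B 8 of these 16 rose, beside 20.4% of all tested genes, led by Mapkapk3 (0.93).

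Downstream, 11 of 26 MAPK-responsive transcription factor and early genes rose and 9 fell in B vs. A, beside 20.1% and 72% of all tested genes. Their median was −0.02, and 17 rose and 6 fell under median-ratio scaling. Atf3 went from 8.06 ± 1.07 to 460.1 ± 27.9 FPKM and Fosb from 2.49 ± 0.38 to 41.0 ± 2.14, whereas Ccnd1, the cyclin D1 gene, went from 78.9 ± 17.9 to 2.51 ± 0.28 and Elk3 fell by 3.40 on the log2 scale. In C vs. B 13 of the 26 rose and 4 fell, beside 20.4% and 23.6% of all tested genes. Egr1, a classic ERK-responsive gene, stood at 41.0 ± 8.73 FPKM in group A and 40.3 ± 5.88 in B. It was at 237.9 ± 9.07 FPKM in C and 70.2 ± 12.1 in D. The like levels of Egr1 in A and B hold on the FPKM scale only. Median-ratio scaling divides FPKM by 1.62 to 1.63 in group A and by 0.64 to 0.65 in group B, which puts B higher. In D vs. A 12 rose (10.5% of all tested genes did), led by Egr3 (1.33) and Ier2 (0.95), and 1 fell (11.5%).

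**Figure D5:**
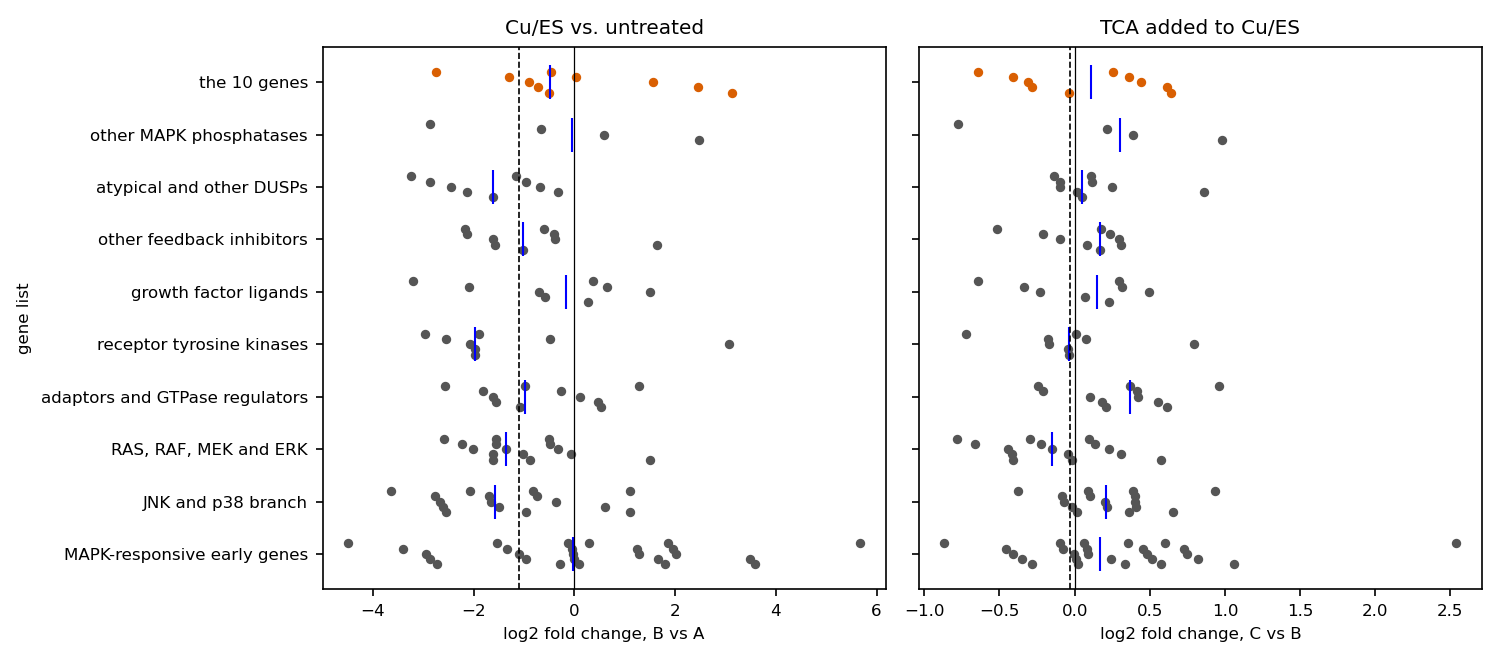
Log2 fold change (x axes, with different ranges) of the 10 genes and of the tested genes of 9 pathway lists (y axis) for B vs. A and C vs. B; each point is a gene, blue ticks are list medians and dashed lines the median of all tested genes. In B vs. A the 10 genes have a median of −0.49, most kinase and receptor genes lie below 0, and single genes such as Epha2 and Atf3 lie above 3.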

How the data were processed

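Polyadenylated RNA of 12 AML12 libraries was sequenced, with 3 in each of 4 groups, and the groups were taken from the GEO labels. The authors deposited FPKM values per gene for all libraries. The submitters' processing notes name fastp, HISAT2, HTSeq and the build GRCm39, with versions not given in the sources used here. The study tested differences with a count model. The values used here were deposited as FPKM, and limma on their log scale was chosen as the main test. Reads recovered from the FPKM values entered an alternative only (limma-voom).

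Values were analysed as log2(FPKM + 1) in limma 3.58.1 (R 4.3.3; empirical Bayes with a mean-variance trend, two-sided). Genes with a mean of at least 1 FPKM (10615 of 24824) and all 12 libraries entered 1 model with 8 residual degrees of freedom. The p-values were adjusted by Benjamini-Hochberg over all genes tested in each of 5 comparisons. The pseudocount understates changes of low genes such as Dusp8, Dusp10 and Spred2. For single genes an exact permutation test of 3 against 3 libraries cannot go below p = 0.1, the value it gave wherever groups did not overlap. In the FPKM spacing, values of all 22212 genes above 0 in at least 2 libraries were whole multiples of 1 read (tolerance 0.01), which gave the reads, library totals and gene model lengths. Replicates of a group differed beyond counting noise (chi-square per degree of freedom at least 6.92). The method was tested on simulated data, in which some genes rose and as many fell in 1 group. Most genes were left unchanged there, so that test did not cover a shift of the median gene such as that under Cu/ES.

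The 10 genes and the pathway lists were chosen with earlier results of these data known. From each list the text names, per comparison, at most the 2 largest rises and 2 largest falls that passed. Alternatives were another pseudocount, other filters, TPM, median-ratio and quantile scaling, the replicate number as a block, no trend, only the compared groups, limma-voom on recovered reads, and each library left out in turn. Promoter sequences are from RefSeq (GRCm38.p6). Intervals from read numbers would cover counting error only and are not given. Some values of single pathway genes are not reported here.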

Additional observations from a re-analysis of the deposited data

Results flagged for a closer look

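For 3 of the 10 genes the effect of TCA with Cu/ES differed from its effect without Cu/ES by the test of the difference itself. The interaction on the log2(FPKM + 1) scale was 0.72 for Dusp10 (limma adjusted p = 6.46e-04), where TCA gave −0.28 without Cu/ES and 0.44 with it. It was −0.7 for Dusp8 (limma adjusted p = 0.00217), from 0.29 without and −0.41 with Cu/ES, at levels between 0.82 and 2.31 FPKM. It was 0.56 for Dusp6 (limma adjusted p = 0.0042), from 0.09 without and 0.64 with Cu/ES. All 3 passed in each alternative in which they were tested and without each library in turn. Over all tested genes 37.5% passed the same test. No group was large enough for a test of single outlying libraries.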

How the results depend on the processing

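Apart from the leave-one-out settings, 430 of 480 values (single gene, comparison and alternative) kept their direction and their side of the threshold, 24 newly passed it, 5 lost it and 21 changed sign. Under TPM scaling Dusp8 gave −0.24 in B vs. A and Spry2 0.027 in C vs. B. Under median-ratio scaling B vs. A gave 0.78 for Dusp4, 0.39 for Dusp6, 0.71 for Spry2 and 0.37 for Spry4, C vs. B gave 0.014 for Spry2, and C vs. D gave 1.15 for Dusp4, 1.01 for Dusp6, 0.18 for Dusp8, 0.63 for Spry2 and 0.85 for Spry4. Under quantile normalization B vs. A gave 0.054 for Dusp4, 0.81 for Spry2, 0.66 for Spry4 and 0.10 for Spred2, and C vs. D gave 0.40 for Dusp4, 0.12 for Dusp6, 0.61 for Dusp8, 0.63 for Spry2 and 0.89 for Spry4. By construction median-ratio scaling moves the all-gene median of B vs. A to 0.01 and quantile normalization to −0.10. Calls then split into 4670 higher and 4654 lower and into 4262 and 4832 in B vs. A, and into 4709 and 4704 and into 4202 and 4893 in C vs. D, against 2138 and 7639 and 2218 and 7589 on the FPKM scale. Leaving out 1 library changed the sign of Dusp8 in B vs. A (range −0.020 to 0.12), Spry2 in C vs. B (−0.16 to 0.024), and Dusp1 (−0.30 to 0.032) and Spred2 (−0.025 to 0.073) in D vs. A, none of which passed.

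Of the 10 genes, 2 were called in D vs. A, against 1 with median-ratio scaling and 4 with only the compared groups (the cause was not tested), and 1 to 4 when a library was left out. For the interaction 3 became 6 with median-ratio scaling, and 3 to 6 were called without a library. Leaving out a library gave 9 in B vs. A, 6 to 9 in C vs. B and 9 to 10 in C vs. D. Over all genes D vs. A gave 2339 calls, 1427 with a pseudocount of 0.1, 1513 with a mean of at least 5 FPKM (848 higher and 579 lower, and 922 and 591, against 1114 and 1225), and 1446, 1492 and 1420 without A replicate 1, D replicate 1 and D replicate 3. With the 6878 genes of at least 5 FPKM, 9777 became 6317 in B vs. A and 9807 became 6366 in C vs. D, since fewer genes were tested; Dusp8 and Spred2 were then not among them. With an interaction beyond 1 log2 unit required as well, 1 of the 10 genes passed instead of 0 under limma-voom and at a pseudocount of 0.1.

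Replicate numbers were treated as names, since the correlation of deviations was above 0.1 in 11 and not all of the 18 same-numbered pairs (−0.17 to 0.58, mean 0.125 against −0.059 for other pairs). All 3 pairs of A with B were above it, and there the block changed no call of the 10 genes. A replicate block lost none of the calls for the 10 genes and added Dusp4 in C vs. B (adjusted p = 0.00946), C vs. D (0.0182) and the interaction (0.022), and Dusp8 in D vs. A (0.048). Dusp8 rested on 146 to 504 reads per library, which limits its precision.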
